A study of Mus musculus with 4 samples.

Results

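Leukocytes of KPC tumours that had received a STING agonist alone were compared here with leukocytes of untreated KPC tumours, cell class by cell class. KPC is a mouse pancreatic cancer line, grown under the skin of male C57BL/6 mice. The agonist was ADU-S100, a synthetic cyclic dinucleotide injected into the tumour, and the comparison group received no agonist. By the study's methods the agonist was given as a single injection, and tumours were collected days, not hours, after it. Each group's tumours were combined before dissociation, live CD45-positive cells were sorted, and 5-prime droplet libraries were made from them. Each group had 1 library, so the spread between pools is unknown, no test was possible and no p-value is given. Single-cell sequencing was done more than once in the study, and the source of these libraries among those runs is not stated. Pooling also left no value for any single animal. Both other libraries of the series, which involve an LTβR agonist, were not used in any comparison.

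STING is an adaptor protein of the endoplasmic reticulum that binds cyclic dinucleotides, which cells make through cGAS when DNA is present in their cytosol. Once bound, it recruits the kinase TBK1, which phosphorylates the transcription factor IRF3 and leads to type I interferon and to NF-κB target genes. Interferon then acts through its receptor on a large set of interferon-stimulated genes, and dendritic cells and macrophages of tumours are known for strong responses.

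Cells were chosen by the number that ends each barcode in the shared matrix, and had to hold 300 to 5000 detected genes and at most 6% mitochondrial unique molecular identifiers (UMIs, 1 per captured RNA molecule). This kept 3748 of 3955 barcodes for the STING agonist and 6783 of 7191 for the untreated library, together 10531 of the 23011 cells kept in the whole series. Before these limits the libraries held 32529174 and 60770280 UMIs. Depth per cell was close, with medians of 6748 UMIs and 2388.5 genes under the agonist and of 7094 UMIs and 2402 genes without it. Both libraries shared 29 barcode sequences. Within each class the median UMIs per cell lay somewhat higher under the agonist in most cases, for example 10801 against 8997.5 in macrophages or monocytes and 2324 against 2159 in neutrophils. For this reason, shares of cells that carry a gene are given after each cell had been thinned at random to 1000 UMIs, with shallower cells left out.

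Classes were set by how many marker genes had a UMI in a cell. A neutrophil needed 3 of 8 markers (such as S100a8, Csf3r and Cxcr2), a macrophage or monocyte 3 of 7 (such as Adgre1, Fcgr1 and Csf1r), a T cell 2 of the 3 CD3 genes, and an NK cell 2 of 4 (Ncr1, Klrb1c, Klrb1f and Klre1) with at most 1 CD3 UMI. Dendritic cells (DCs) comprised Xcr1 and Clec9a type 1 DCs, Fscn1 and Ccr7 mature DCs, and Cd209a and Flt3 DCs. A cell that passed several gates was put in no class. Such cells made up 7.87% of the untreated library (534 cells) and 5.34% of the agonist library (200 cells), and a further 14.7% and 13.3% passed no gate. Macrophage with T cell markers (152 untreated and 45 agonist cells) and macrophage with DC markers (141 and 56) were the most frequent pairs. Whether these were doublets or cells of mixed character was not tested.

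Neutrophils and conventional CD4 T cells took larger shares of the agonist library, and DCs and macrophages or monocytes took smaller ones. Neutrophils, the short-lived granulocytes recruited to inflamed tissue, were 189 cells or 2.79% of the untreated library (95% interval 2.41 to 3.21) and 270 cells or 7.20% of the agonist library (6.40 to 8.08). The agonist share was 2.59 times the untreated one (1.99 to 3.36). All intervals on shares are exact binomial (Clopper-Pearson) intervals at 95%, a ratio of shares sets each bound against the opposite bound of the other share, and every interval covers counting error only. A share in a sort of fixed size also moves when other classes move, so more cells of a class and fewer cells of the others cannot be told apart.

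Conventional CD4 T cells, which carried Cd4 but no Foxp3, Cd8a or Cd8b1 UMI, were 2.87% (195 cells) without and 5.84% (219 cells) with the agonist, a ratio of 2.03 (1.55 to 2.67). All T cells together were 21.9% (1483 cells) and 29.5% (1107 cells), a ratio of 1.35 (1.23 to 1.49). CD8 T cells were 12.5% (846 cells) and 14.5% (543 cells), a ratio of 1.16 (1.01 to 1.34). Among lymphoid cells alone, however, CD8 T cells were 46.3% without and 41.7% with the agonist, a ratio of 0.899 (0.801 to 1.01), so the direction for CD8 T cells depended on the denominator. Conventional CD4 T cells kept a ratio of 1.57 (1.22 to 2.04) on that denominator. Gamma-delta T cells, an innate-like T cell lineage, were 67 and 61 cells, a ratio of 1.65 (0.996 to 2.72) whose interval reached below 1. Regulatory T cells, the Foxp3-bearing suppressors, were 52 and 42 cells, a ratio of 1.46 (0.805 to 2.64).

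DCs, which take up tumour antigen and present it to T cells, were 375 cells or 5.53% of the untreated library and 125 cells or 3.34% of the agonist library, a ratio of 0.603 (0.456 to 0.793). Each DC gate had a ratio below 1, though the interval for type 1 DCs reached above it. Cd209a DCs were 160 and 54 cells (ratio 0.611, 0.394 to 0.933), mature DCs 148 and 52 cells (0.636, 0.406 to 0.983) and type 1 DCs 67 and 19 cells (0.513, 0.244 to 1.03). Plasmacytoid DCs (26 and 6 cells) and B cells (47 and 12 cells) were too few to place, with intervals of 0.105 to 1.39 and 0.180 to 1.10. Macrophages or monocytes remained the most numerous class, at 41.8% (2832 cells) and 35.8% (1340 cells), a ratio of 0.856 (0.797 to 0.920). Within them, Ly6c2 monocytes had a ratio of 0.846 (0.741 to 0.965) and C1q macrophages one of 0.958 (0.788 to 1.16). NK cells were 296 cells (4.36%) and 184 cells (4.91%), a ratio of 1.12 whose interval (0.869 to 1.45) spans 1. Among lymphoid cells alone the NK ratio was 0.871 (0.683 to 1.11), so its direction also depended on the denominator.

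**Figure D1:**
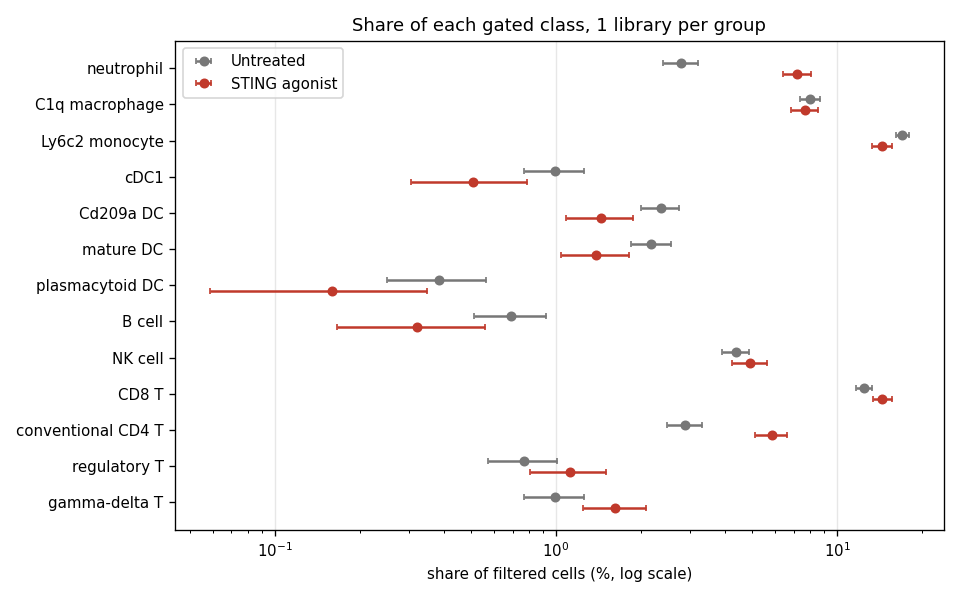
Share of all kept cells (percent) that fell in each marker-gated class in the untreated and the STING agonist library, with exact 95% binomial intervals for counting error only. Neutrophils (2.79% against 7.20%) and conventional CD4 T cells (2.87% against 5.84%) stand higher under the agonist, with intervals that do not overlap. Cd209a DCs (2.36% against 1.44%) and mature DCs (2.18% against 1.39%) stand lower, also without overlap. The intervals of type 1 DCs and of plasmacytoid DCs overlap.

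For expression, UMIs of a gene were summed over the cells of a class in each library and expressed as CPM, the usual scaling of a gene's UMIs to one fixed total of UMIs for the class in each library. A ratio is always CPM under the agonist over CPM without it, with an exact 95% interval from both counts. Genes with at least 50 UMIs in 1 of the libraries are called tested below, and a ratio of 1.5 or more, or its inverse, serves as a mark of size only. Over all tested genes of a class the median log2 ratio lay between -0.02 and 0.10 in the 10 classes of the map of medians by class, and it stands beside the list medians there.

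Neutrophils of the agonist library carried more chemokine RNA. Cxcl3, a CXCR2 ligand that attracts further neutrophils (GRCm38 chromosome 5, 90786103 to 90789600), had 342 UMIs in the untreated and 1683 UMIs in the agonist library. On the CPM scale that is 789 and 2453, a ratio of 3.11 (2.77 to 3.50). It was found in 25.4% of thinned untreated neutrophils and in 33.2% of thinned agonist neutrophils, against none of the thinned CD8 T cells in either library. Of 7 tested chemokines in a list of 25, 4 were at least 1.5-fold higher and none lower, where 5.96% of the 1794 genes tested in neutrophils lay that far up and 6.19% that far down. Ccl4 had 748 and 3206 UMIs (ratio 2.71, 2.50 to 2.94), and Ccl3 had 387 and 1134 UMIs (1.85, 1.65 to 2.08). Ccl2, the fourth, had 70 UMIs in the agonist library and none without it, but 90% of them sat in a single cell. Cxcl2 was already abundant, at 5752 UMIs and 11817 UMIs, and its ratio was 1.30 (1.26 to 1.34).

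Among the higher genes outside the lists in neutrophils were Tinf2, which encodes a subunit of the telomere-protecting shelterin complex, and Hcar2, a receptor for niacin and ketone bodies. Tinf2 had 56 and 244 UMIs, a ratio of 2.75 (2.05 to 3.75), and its share of thinned cells was 11% and 22%. Hcar2 had 270 and 807 UMIs (623 and 1176 CPM), a ratio of 1.89 (1.64 to 2.18), and was found in 31.8% and 48.9% of thinned neutrophils against at most 0.118% of thinned CD8 T cells. The inhibitory receptor gene Lilr4b had a ratio of 1.63 (1.49 to 1.79), and Rdh12, a retinol dehydrogenase, one of 2.00 (1.49 to 2.72). E230032D23Rik, an antisense RNA gene on chromosome 7, had 21 and 95 UMIs, a ratio that is uncertain because the strand setting of the counting is not stated. On the lower side stood Sema4d (197 and 147 UMIs, 0.472, 0.378 to 0.587), the autophagy gene Atg7 (0.465), the NF-κB scaffold gene Malt1 (0.50), the kinase gene Map4k4 (0.428), Tmcc1 (0.533) and the chaperone gene Hspa4l (0.494).

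Interferon-stimulated genes stood modestly higher in neutrophils. Of 46 genes in the type I interferon list 35 could be tested, 7 were at least 1.5-fold higher and none lower, and the list median was 0.34 on the log2 scale against -0.02 for all genes. Xaf1 had 27 and 84 UMIs (ratio 1.97, 1.26 to 3.16), Oas2, an RNA-sensing synthetase, 36 and 100 UMIs (1.76, 1.19 to 2.65) and its relative Oasl1 76 and 209 UMIs (1.74, 1.33 to 2.29). Isg15, a ubiquitin-like modifier, had 937 and 1965 UMIs, a ratio of 1.33 (1.23 to 1.43), and was found in 56.1% and 70.2% of thinned neutrophils. At the low end stood Ly6e (0.827), Stat2 (0.885) and Sp100 (0.973). Among 15 tested interferon-gamma-induced genes 2 passed the mark, Irgm1 (1.83, 1.40 to 2.41) and Socs1 (1.86), of whose untreated UMIs 33% came from 1 cell. Cd274, which encodes the checkpoint ligand PD-L1, had 413 and 923 UMIs (1.41, 1.26 to 1.59).

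Granule genes need the single cells behind them. Of 11 tested granule genes 6 passed the mark upward, with a median of 0.65, yet Ngp (1 and 796 UMIs), Camp (0 and 362) and Ltf (12 and 241) are genes of immature neutrophils, and 69%, 75% and 70% of their agonist UMIs came from 1 cell each. Without neutrophils of 10 or more Ngp, Camp and Ltf UMIs, the list median was 0.26. Mmp8 (24 and 86 UMIs), Anxa1 (80 and 254) and Lcn2 (170 and 422) also passed the mark. In the agonist library 22%, 21% and 36% of their UMIs came from 1 cell each. The 3 lowest of the list, Padi4 (1.13), Slpi (1.19) and S100a6 (0.940), stood near 1. Il1b, the most abundant cytokine RNA named here in neutrophils, had 8921 and 15284 UMIs and a ratio of 1.08 (1.05 to 1.11). Of 25 tested immediate-early genes, which are switched on within minutes of a stimulus, 1 was higher and 2 were lower past the mark. Nr4a1 had 383 and 386 UMIs (0.637, 0.552 to 0.736), Nr4a3 had 125 and 130 (0.657, 0.510 to 0.847) and Rhob 50 and 121 (1.53, 1.09 to 2.17). Markers of macrophages or monocytes summed to 3067 CPM in untreated and 4659 CPM in agonist neutrophils, with none of the 7 at 0. Cd14 alone, a gene also listed for tumour neutrophils, made up 2825 and 4468 CPM of these sums. The rise of the sum was therefore that of Cd14, and the part of these markers in the results was not tested. Tmem173, the gene of STING itself, had 2 and 3 UMIs in neutrophils, too few for a comparison.

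**Figure D2:**
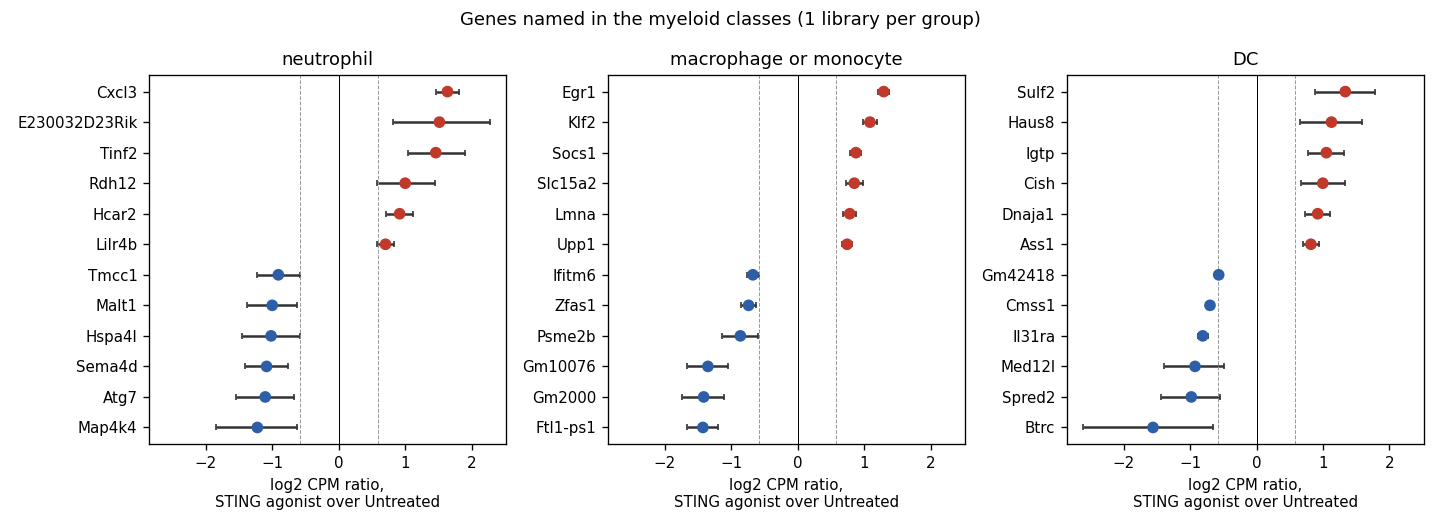
Log2 ratio of CPM (agonist over untreated) with 95% counting intervals for the 6 highest and 6 lowest genes by the naming rule in neutrophils, macrophages or monocytes, and DCs. Cxcl3 leads in neutrophils (ratio 3.11), Egr1 in macrophages or monocytes (2.45) and Sulf2 in DCs (2.52).

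In macrophages or monocytes the STING pathway and its usual interferon targets stood level at the time of collection. Tmem173 had 2275 UMIs untreated and 1481 UMIs under the agonist (83.6 and 99.5 CPM), a ratio of 1.19 (1.11 to 1.27). None of 14 tested pathway genes reached 1.5-fold in either direction, where 1.49% of the 10481 tested genes lay that far up and 2.82% that far down. The sensor gene Cgas was at 0.986, Tbk1 at 1.07, Irf3 at 1.09, Ikbke at 0.882 and Irf7 at 0.920 (0.893 to 0.947). The list members Ddx41 (1.06), Ifi204 (0.891), Tax1bp1 (1.07) and Stim1 (0.972) were as close to 1, as were Usp18 (1.02) and the interferon receptor genes Ifnar1 (0.989) and Ifnar2 (1.01). Enpp1, which encodes the enzyme that degrades the STING ligand cGAMP, was at 0.686 from 88 and 33 UMIs, with an interval of 0.445 to 1.03. All 46 interferon-stimulated genes could be tested, none passed the mark, and their median was -0.08. Isg15 had 1288 and 1193 CPM, a ratio of 0.926 (0.910 to 0.943), and Ifit1bl1 was lowest of the list at 0.716. Ifnb1, interferon-β itself, had 7 and 1 UMIs. The paper reports IRF3 phosphorylation and interferon-β protein in tumours within hours of the injection. These libraries hold cells collected days later, so an early response was not measured here.

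Interferon-gamma-induced and immediate-early genes stood higher in the same cells. The interferon-gamma list had 5 of 28 tested genes past 1.5-fold upward, none downward, and a median of 0.33. Cxcl9, which draws T cells that carry CXCR3, had 9544 and 8110 UMIs (351 and 545 CPM), a ratio of 1.55 (1.51 to 1.60), and was found in 15.1% and 20.5% of thinned cells against at most 0.355% of thinned CD8 T cells. Socs1, a feedback inhibitor of cytokine signalling, had 2412 and 2423 UMIs (88.6 and 163 CPM), a ratio of 1.84 (1.74 to 1.94), and 7.1% and 12.7% of thinned cells. Iigp1 (1.5, 1.42 to 1.58), Gbp6 (1.5, 1.41 to 1.61) and Tgtp2 (1.52, 1.38 to 1.67), all interferon-inducible GTPases, made up the rest. Cxcl10, which both kinds of interferon induce, was nearly level at 898 and 967 CPM (1.08, 1.06 to 1.10). Ciita (0.978) and Psmb9 (1.04) were level as well.

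Egr1, an immediate-early transcription factor, was the leading gene of the class. It had 2046 and 2746 UMIs (75.1 and 184 CPM), a ratio of 2.45 (2.32 to 2.60), and was found in 6.2% of thinned untreated and 13.2% of thinned agonist cells. Klf2, a factor that restrains myeloid activation, had a ratio of 2.13 (1.97 to 2.29), and Egr3 one of 1.90 (1.28 to 2.81) from 54 and 56 UMIs. In the whole immediate-early list 5 of 30 passed upward, none downward, and the median was 0.18, with Dusp2 lowest at 0.729 (0.665 to 0.799). Slc15a2, a peptide transporter (1.81, 1.66 to 1.97), the nuclear lamina gene Lmna (1.72, 1.61 to 1.85) and Upp1, a uridine phosphorylase (1.68, 1.59 to 1.77), completed the 6 highest.

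The lowest genes of the class were mostly copies whose reads may be split with near-identical genes. Ftl1-ps1 (0.372), Gm2000 (0.375), Gm10076 (0.392) and Psme2b (0.551) are such copies and are uncertain. Zfas1, a host gene of small nucleolar RNAs, was at 0.600 (0.554 to 0.649) and Ifitm6, an interferon-induced membrane protein gene of monocytes, at 0.627 (0.590 to 0.667) from 4057 and 1391 UMIs. Of 25 tested genes in the suppressive macrophage list, 2 were higher (Pf4 and Gpnmb, both 1.65) and 3 lower past the mark. Il10, an inhibitory cytokine, had 68 and 11 UMIs (0.296, 0.141 to 0.563), Ccl24 had 2892 and 971 (0.614, 0.570 to 0.661) and Gas6 52 and 16 (0.563, 0.30 to 1.00). Arg1, the arginase that marks suppressive macrophages, was abundant and nearly level at 1825 and 1990.2 CPM (1.09, 1.07 to 1.11). In the inflammatory list 4 of 24 were higher, among them Cd38 (1.63, 1.48 to 1.79), while Ccl5 was at 0.767 (0.754 to 0.780) and Nos2, the nitric oxide synthase, at 1.39 (1.34 to 1.44). Class II antigen presentation genes stood near level, with Cd74 at 1.20, H2-Aa at 1.15 and 1 of 15 past the mark, H2-Oa, at 0.622 (0.522 to 0.739).

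C1q macrophages (544 untreated and 288 agonist cells), gated by 5 or more complement C1q UMIs and no Ly6c2 UMI, were again led by Egr1 and Socs1. Egr1 had 576 and 980 UMIs (2.58, 2.33 to 2.87) and Socs1 278 and 385 (2.10, 1.80 to 2.46). Lyz2, lysozyme, had 13385 and 15878 UMIs (1.80, 1.76 to 1.84), and Cd38 had 287 and 349 (1.84, 1.57 to 2.16). Mctp1 (2.02) and F830016B08Rik (2.53) were the remaining high genes. Lower were the fractalkine receptor gene Cx3cr1 (473 and 138 UMIs, 0.443, 0.363 to 0.536), Zfp395 (0.471), Rab11fip2 (0.431) and Egln3, an oxygen-sensing prolyl hydroxylase (630 and 231 UMIs, 0.556, 0.476 to 0.648). The chemokine gene Ccl7 had 772 and 180 UMIs (0.354, 0.299 to 0.416). Nos2 had a ratio of 1.65 (1.52 to 1.80), with 13.4% and 21.7% of thinned cells. Saa3 looked far higher, at 10 and 418 UMIs, but 3 cells held 94% of the agonist UMIs. Among 45 tested interferon-stimulated genes none was higher and 2 were lower past the mark, where 1.94% of the 7688 genes tested in these cells lay that far up and 2.39% that far down.

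Ly6c2 monocytes (1159 and 542 cells), gated by a Ly6c2 UMI and fewer than 5 C1q UMIs, had chemokine genes on both sides of 1. Ccl7 stood higher here, at 560 and 549 UMIs (1.80, 1.60 to 2.03), as did Ccl2 (1.43, 1.36 to 1.51), which recruits further monocytes and was found in 12.4% and 18.1% of thinned cells. Ccl5 was lower, at 18742 and 6153 UMIs (0.603, 0.586 to 0.621), with 31.5% and 26.0% of thinned cells. Klf2 (2.33), the kinase gene Plk2 (2.15), Egr1 (1.97), Slc15a2 (1.93), Upp1 (1.84) and Socs1 (1.79) led. Spp1, osteopontin, was at 1.59, with 53% of the agonist UMIs in 3 cells. None of the 46 interferon-stimulated genes passed the mark in either direction and their median was 0.01, where 1.59% of the 8637 tested genes lay that far up and 2.77% that far down. The genes Gm15564 (0.583), Gm10076, Gm2000, Ftl1-ps1 and Psme2b were lowest beside Ccl5 and are uncertain for shared reads. That Ccl7 stood lower in C1q macrophages and higher in Ly6c2 monocytes is given as values, with no test of the difference.

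**Figure D3:**
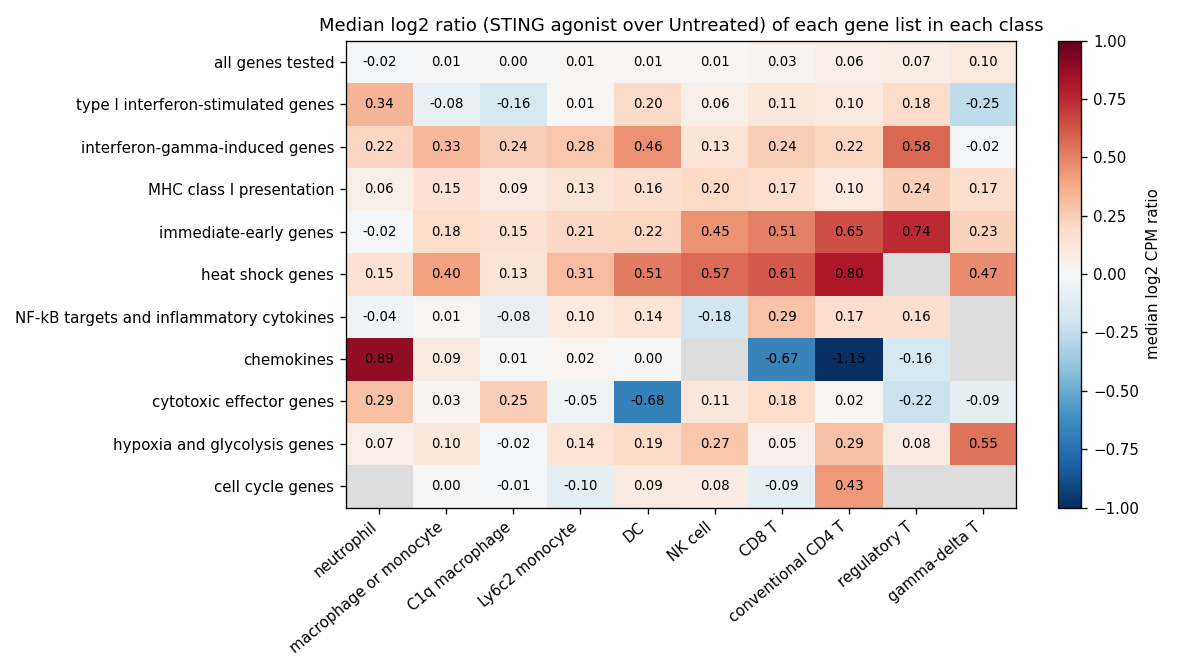
Median log2 ratio of CPM (agonist over untreated) over the tested members of each gene list in each class, with all tested genes as the comparison and grey cells where under 5 members were tested. Type I interferon-stimulated genes stand at 0.34 in neutrophils, -0.08 in macrophages or monocytes and 0.20 in DCs, and immediate-early genes stand at 0.45 to 0.65 in NK, CD8 T and conventional CD4 T cells.

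In DCs the gene of STING itself was among the higher genes. Tmem173 had 314 UMIs in 375 untreated DCs and 177 UMIs in 125 agonist DCs (73.2 and 121 CPM), a ratio of 1.65 (1.37 to 1.99). It was found in 6.7% (4.4 to 9.7) of thinned untreated and 12.0% (6.9 to 19.0) of thinned agonist DCs, and these intervals overlap. It was the 1 gene of 12 tested pathway genes past the mark, where 2.69% of the 7256 genes tested in DCs lay that far up and 5.28% that far down. Tbk1 was at 1.30 (0.996 to 1.69), Ifi204 at 1.24, Ifnar1 at 1.15, Usp18 at 1.14, Irf7 at 1.13, Irf3 at 1.12 and Ifnar2 at 1.11. The remaining members were Tax1bp1 at 0.991, Ddx41 at 0.969, Cgas at 0.917 and Stim1 at 0.738 (0.497 to 1.07). For comparison, Tmem173 had ratios of 1.19 in C1q macrophages, 1.18 in Ly6c2 monocytes, 1.19 in NK cells, 1.07 in CD8 T cells and 1.95 (1.31 to 2.96) in conventional CD4 T cells.

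Interferon-gamma-induced genes stood higher in DCs, with 6 of 27 past the mark upward, none downward, and a median of 0.46. Igtp had 279 and 197 UMIs (65.1 and 135 CPM), a ratio of 2.07 (1.72 to 2.49), and its GTPase relatives Irgm2 and Tgtp1 were at 1.98 (1.51 to 2.60) and 1.85 (1.32 to 2.59). Irf1, the transcription factor that drives many of these genes, had 997 and 536 UMIs (1.58, 1.42 to 1.75) and was found in 16.6% (13.0 to 20.7) and 30.4% (22.5 to 39.3) of thinned DCs. Irf8, the factor that type 1 DCs depend on, was at 0.841 (0.784 to 0.902) over all DCs, and Gbp5 was level at 0.993. Within type 1 DCs alone Irf8 was not lower, at 1397 of 1053135 untreated UMIs and 380 of 283405 agonist UMIs. The part of the mix of DC gates in the ratio over all DCs was not tested. Of 45 interferon-stimulated genes 3 passed upward and the median was 0.20, a value that was 0.072 when each gate needed 1 more marker. Those 3 were Rsad2 (2.04, 21% of agonist UMIs in 1 cell), Ifi44 (1.72) and Ifit3 (1.59, 22% in 1 cell). No UMI of Ifnb1 was counted in DCs of either library.

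The highest single genes in DCs were Sulf2, a heparan sulfatase (93 and 80 UMIs, 2.52, 1.85 to 3.44), Haus8 (2.18), the cytokine-induced inhibitor Cish (2.00, 1.59 to 2.50) and the co-chaperone Dnaja1 (1.89, 1.66 to 2.15). Ass1, which makes arginine from citrulline, had 1628 and 978 UMIs (1.76, 1.63 to 1.91) and was found in 25.1% and 42.4% of thinned DCs against at most 1.29% of thinned CD8 T cells. Heat shock genes had 5 of 11 past the mark and a median of 0.51. Lower were Il31ra, a cytokine receptor subunit (8819 and 1715 UMIs, 0.570, 0.541 to 0.601), the ubiquitin ligase gene Btrc (0.340), the ERK inhibitor Spred2 (0.506) and Med12l (0.526). Il31ra was not particular to DCs, and it was not lower in every DC gate. In type 1 DCs it had 1672 of 1053135 untreated and 427 of 283405 agonist UMIs, which is nearly level. Regulatory T cells had 650 of 288349 and 301 of 226234 UMIs, and gamma-delta T cells 1178 of 330940 and 643 of 387118, lower in both. In neutrophils it had 864 of 433669 and 1238 of 686225 UMIs, slightly lower as a share. Gm42418 (0.674) and Cmss1 (0.615) overlap in the genome and are uncertain.

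Genes of DC activation stood mostly level. Of 29 tested, 1 was higher and 1 lower past the mark. Icosl, a ligand that co-stimulates T cells, had 230 and 118 UMIs (1.5, 1.19 to 1.89), and Cd40 (1.02) and Cd86 (0.916) were near 1. Il12b, a subunit of the cytokines IL-12 and IL-23, had 916 and 157 UMIs (0.503, 0.422 to 0.596), but 29% of the untreated UMIs came from 1 cell and the share of thinned cells was 6.1% and 7.2%. Ccl22, which attracts regulatory T cells, was at 0.713 (0.638 to 0.795) and Socs2 at 0.682 (0.581 to 0.797). None of 24 class I presentation genes passed the mark, and their regulator Nlrc5 was highest at 1.46 (1.28 to 1.67). T cell markers in DCs summed to 11 CPM untreated and 0.684 CPM under the agonist, with 2 of the 3 at 0 in the latter, and their part was not tested.

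NK cells, cytotoxic lymphocytes that kill without a clonal antigen receptor, held a smaller share of cells with Ly49 receptor RNA under the agonist. Ly49 receptors recognise class I molecules and mark mature NK cells of mice. After thinning, 66.2% of 293 untreated NK cells (60.5 to 71.6) and 46.7% of 184 agonist NK cells (39.4 to 54.2) had a UMI of Klra1, Klra3, Klra4, Klra7, Klra8 or Klra9, and as counted these shares were 80.4% and 58.2%. In macrophages or monocytes, which should lack them, Klra4 was in at most 0.0751% of thinned cells. Klra3 had 205 and 64 UMIs (0.471, 0.350 to 0.627) and Klra1 had 86 and 21 (0.369, 0.217 to 0.599). The other members stood below 1 as well, with Klra4 at 0.704, Klra7 at 0.805, Klra8 at 0.728 and Klra9 at 0.741. Itga2, the integrin gene of conventional NK cells, had 317 and 108 UMIs (0.514, 0.410 to 0.642), and Eomes, the transcription factor that NK cells need to mature, had 491 and 223 (0.686, 0.583 to 0.805). A UMI of Eomes was in 24.6% (19.8 to 29.9) of thinned untreated and 17.9% (12.7 to 24.3) of thinned agonist NK cells, intervals that overlap. With cells thinned to 500 UMIs instead, these shares were 10.8% and 13.0%, the other way round. Cells with neither Eomes nor a Ly49 UMI were 84 of 293 thinned untreated NK cells (28.7%, 23.6 to 34.2) and 92 of 184 thinned agonist NK cells (50%, 42.6 to 57.4). At 500 UMIs the shares with neither were 46.6% (40.8 to 52.5) and 59.2% (51.8 to 66.4), intervals that overlap.

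By the naming rule, which ranks genes by the interval bound nearest to 1, S100a4 came first among the higher genes of NK cells. S100a4, a calcium-binding protein of motile cells (chromosome 3, 90603771 to 90606045), had 324 and 494 UMIs (181 and 417 CPM), a ratio of 2.30 (2.00 to 2.66), and was found in 7.5% (4.8 to 11.1) and 21.2% (15.5 to 27.8) of thinned NK cells. Thy1 had 529 and 675 UMIs (1.93, 1.72 to 2.16), with 16.0% and 32.1% of thinned cells against at most 0.450% of thinned macrophages or monocytes. Cxcr6, a chemokine receptor gene of tissue-resident lymphocytes, had 51 and 74 UMIs (2.19, 1.51 to 3.19), the IL-7 receptor gene Il7r 70 and 99 (2.14, 1.56 to 2.94) and Klrg1 39 and 51 (1.97, 1.28 to 3.08). Cells with a Cxcr6 or Il7r UMI were 5.46% (3.15 to 8.72) and 12.0% (7.65 to 17.5) after thinning, intervals that overlap. Cd226, an activating receptor gene, had 166 and 207 UMIs (1.88, 1.53 to 2.32). Tmem176b (2.25), Gna15 (2.21), the oxysterol receptor gene Gpr183 (2.02) and Cebpb (1.90, 1.60 to 2.27) were also among the 6 highest.

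Over the list of NK receptors and maturation genes, 7 of 36 tested members were higher and 3 lower past the mark, with a median of -0.02, where 3.60% of the 5223 genes tested in NK cells lay that far up and 4.17% that far down. Lower genes outside the list were Tox, which innate lymphocytes need to develop (390 and 128 UMIs, 0.495, 0.403 to 0.606), Mef2c (0.442), Rnf149 (0.441), Spata5 (0.477) and Tgfb1 (1486 and 594 UMIs, 0.603, 0.548 to 0.664). The 4 NK markers that define the gate summed to 1289 CPM untreated and 1419 CPM under the agonist. CD3 markers summed to 16.2 and 11.8 CPM in NK cells.

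Effector genes of NK cells stood on both sides of 1. Gzmb, the main granzyme, had 3958 and 1469 UMIs (2211 and 1239 CPM), a ratio of 0.560 (0.527 to 0.595), and was found in 51.9% (46.0 to 57.7) and 38.6% (31.5 to 46.0) of thinned cells, while macrophages or monocytes had it in at most 0.569%. Prf1, perforin, was at 0.754 (0.685 to 0.830), Gzma at 0.868 (0.832 to 0.905) and Ifng at 0.746 (0.563 to 0.980) from 162 and 80 UMIs. Fasl (1.46, 1.23 to 1.74) and Ctsw (1.49, 1.36 to 1.62) were higher but under the mark. Gzmf (471 and 80 UMIs) and Gzmd (213 and 226) rested on a few cells, with at least 50% of their UMIs in 1 cell in each library. Across the list 1 of 23 was higher and 2 were lower past the mark.

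Immediate-early genes had 8 of 25 past the mark upward in NK cells and a median of 0.45, with Rhob at 1.75, Egr1 at 1.66 and Fos at 1.65 (1.38 to 1.98). Heat shock genes had 5 of 10 and a median of 0.57, led by Hspa1b (3.93, 43% of agonist UMIs in 1 cell) and Hsph1 (2.79, 1.94 to 4.07). All 7 tested class II genes were lower, with a median of -1.71. Only 2 untreated NK cells held 83.2% of the 913 untreated UMIs of H2-Aa, H2-Ab1 and H2-Eb1, and the agonist library held 76 such UMIs. Without cells of 3 or more such UMIs, the median over the 3 genes still tested was -0.40. Type I interferon-stimulated genes were level, with none of 26 higher, 1 lower and a median of 0.06.

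**Figure D4:**
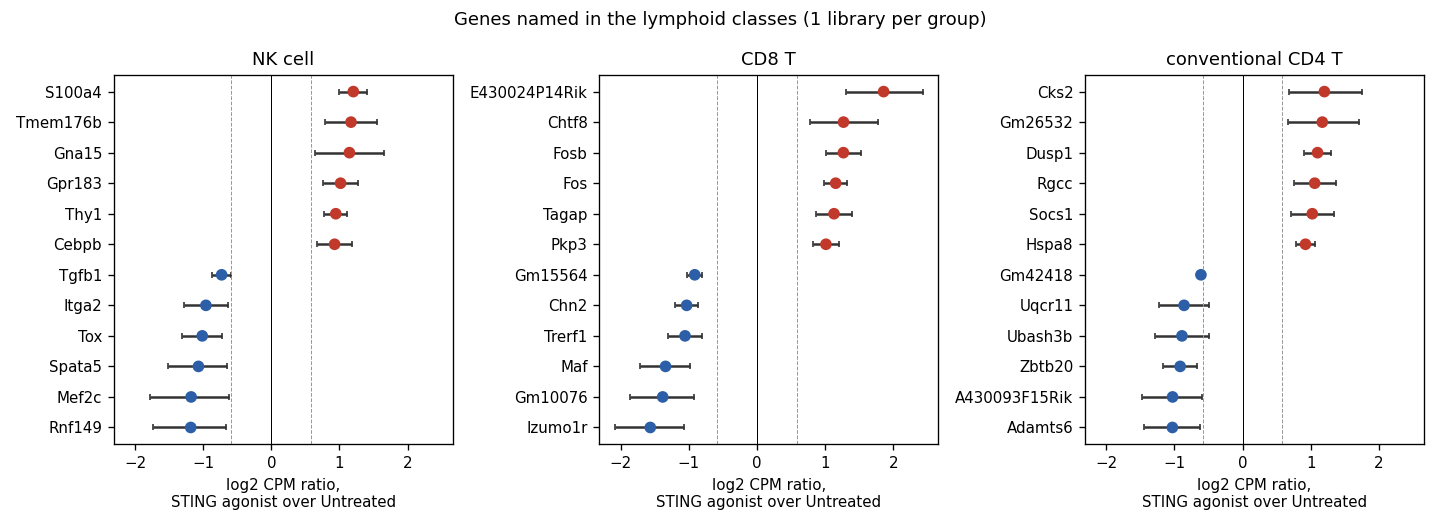
Log2 ratio of CPM (agonist over untreated) with 95% counting intervals for the 6 highest and 6 lowest genes by the naming rule in NK cells, CD8 T cells and conventional CD4 T cells. S100a4 (2.30), the antisense gene E430024P14Rik (3.63) and the cell cycle gene Cks2 (2.30) have the highest ratios shown in these classes, and Rnf149 (0.441), Izumo1r (0.338) and Adamts6 (0.490) are among their lowest.

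CD8 T cells of the agonist library carried more immediate-early and heat shock RNA, while most exhaustion genes stayed within the mark. Fos had 502 and 767 UMIs (78.0 and 174 CPM), a ratio of 2.23 (1.99 to 2.50), and was found in 5.3% (3.9 to 7.1) and 11.6% (9.0 to 14.6) of thinned cells. Fosb was at 2.41 (2.03 to 2.87), Klf4 at 2.01, Dusp1 at 1.80 (1.65 to 1.96) and Junb at 1.57 (1.51 to 1.63). In all, 11 of 28 immediate-early genes were higher past the mark and none lower, with a median of 0.51, where 2.72% of the 8688 genes tested in CD8 T cells lay that far up and 2.68% that far down. Egr1 was level in these cells at 1.03 (0.896 to 1.19), and Nr4a2 was at 0.866 (0.814 to 0.922). Heat shock genes had 7 of 11 upward and a median of 0.61, with Bag3 at 2.27 (1.70 to 3.05) and Hspa1b at 2.04 (1.75 to 2.39).

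Tox, the factor that sustains the exhausted state of T cells, had 3263 and 1593 UMIs (507 and 361 CPM), a ratio of 0.712 (0.670 to 0.756), and was found in 30.2% (27.1 to 33.4) and 19.6% (16.3 to 23.2) of thinned CD8 T cells, against at most 0.641% of thinned macrophages or monocytes. Other exhaustion genes went other ways, with Pdcd1 at 1.22, Ctla4 at 1.24, Lag3 at 1.00 and Havcr2 at 0.828. Of 24 such genes 1 passed the mark, Tox2 (70 and 25 UMIs, 0.521, 0.316 to 0.833). Izumo1r, the folate receptor 4 gene, had 181 and 42 UMIs (0.338, 0.236 to 0.475) and Maf, a driver of inhibitory receptor genes, 299 and 81 (0.395, 0.305 to 0.506). Trerf1 (0.481) and the GTPase regulator Chn2 (0.490) were also lower, beside Gm10076 and Gm15564, which are uncertain for shared reads. Naive and memory genes had 7 of 23 upward and none downward with a median of 0.34. Cxcr3, the receptor for Cxcl9, had 172 and 243 UMIs (2.06, 1.69 to 2.52), Tcf7, the factor of stem-like T cells, 252 and 270 (1.56, 1.31 to 1.86) and Ccr7 129 and 232 (2.62, 2.10 to 3.28).

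Cytotoxic genes of CD8 T cells stood on both sides of 1, with 6 of 25 higher and 2 lower past the mark. Gzmb (1.02, 0.996 to 1.05) and Ifng (1.14, 1.07 to 1.20) were near level and Prf1 was at 0.815 (0.787 to 0.845). Gzmf had 2131 and 3380 UMIs (2.31, 2.19 to 2.44), in 5.3% and 9.6% of thinned cells, with 20% and 14% of the UMIs in 1 cell. Gzma had 2637 and 844 UMIs (0.467, 0.431 to 0.504), with 23% of the untreated UMIs in 1 cell and thinned shares of 5.5% and 6.3%. Ccl5, the most abundant chemokine of these cells, was at 7509 and 4689 CPM (0.624, 0.614 to 0.635), and Ccl3 was at 0.692 (0.663 to 0.721). Pkp3 (2.02), the GTPase activator Tagap (2.19) and Chtf8 (2.41) were further high genes, and the highest, E430024P14Rik (39 and 97 UMIs), is antisense and therefore uncertain. Macrophage or monocyte markers summed to 31.4 CPM untreated and 16.1 CPM under the agonist in CD8 T cells, none of the 7 at 0, and their part was not tested. Proliferation genes were level, with none of 25 higher and 1 lower past the mark.

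Conventional CD4 T cells, which help other lymphocytes, had the broadest set of immediate-early genes on the higher side among the classes of more than 100 cells in each library. Of 25 tested, 13 were higher past the mark and none lower, and the median was 0.65, where 6.29% of the 3993 genes tested in these cells lay that far up and 3.48% that far down. Dusp1, a phosphatase that switches off MAP kinases, had 299 and 777 UMIs (320 and 686 CPM), a ratio of 2.14 (1.87 to 2.46), and was found in 21.5% (16.0 to 28.0) and 36.5% (30.1 to 43.3) of thinned cells. Fos had 122 and 525 UMIs (3.55, 2.91 to 4.36), with 21% of the agonist UMIs in 1 cell. Fosb (2.55), Egr1 (2.41), Btg2 (1.63) and Ppp1r15a, a phosphatase subunit of the integrated stress response (1.45, 1.15 to 1.85), followed, while Nfkbiz (0.913) and Fosl2 (1.02) were level.

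RefSeq promoters of immediate-early genes were searched for 4 motifs on both strands, from 250 bases before to 50 after the start, since these genes stood higher together in the lymphoid classes. The 25 immediate-early genes with a promoter in the table had 31 promoters. The letters of the cyclic-AMP response element, TGACGTCA, were in 588 of 32851 promoters (1.79%) and in 4 of these 31 (12.9%). The 4 were promoters of the immediate-early genes Btg2, Dusp1, Maff and Ppp1r15a. The AP-1 site (TGAGTCA or TGACTCA) was in 5.20% of all promoters and in none of the immediate-early ones. A serum response element was in 1.63% of all promoters and in 6 of the 31 (19.4%), which belong to 3 genes (Dusp5, Egr2 and Zfp36). The interferon response core, a pair of GAAA repeats with any 2 bases between them, was in 3.44% of all promoters. It was in 2 of the 31 (6.45%), those of Fosl2 and Ppp1r15a. A match is a description of letters, not of a factor at work. Variants of these patterns and sites outside the window were not searched, so the lack of a match does not show that an element is absent. The 250 bases before the start are shown for Dusp1 and Ppp1r15a, which hold the cyclic-AMP element 143 and 12 bases before the start, and for Fos, which holds none of the 4 motifs in its window, with matches in capitals and in the direction of transcription. They lie at chr17:26508473-26508722 (minus strand), chr7:45526269-45526518 (minus) and chr12:85473640-85473889 (plus) of GRCm38.p6, outside each RefSeq transcript.
Dusp1: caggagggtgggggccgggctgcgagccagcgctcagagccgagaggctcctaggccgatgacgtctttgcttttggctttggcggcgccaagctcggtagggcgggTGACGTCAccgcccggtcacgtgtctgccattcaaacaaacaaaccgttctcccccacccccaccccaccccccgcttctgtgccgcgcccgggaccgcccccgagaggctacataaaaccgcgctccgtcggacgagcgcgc
Ppp1r15a: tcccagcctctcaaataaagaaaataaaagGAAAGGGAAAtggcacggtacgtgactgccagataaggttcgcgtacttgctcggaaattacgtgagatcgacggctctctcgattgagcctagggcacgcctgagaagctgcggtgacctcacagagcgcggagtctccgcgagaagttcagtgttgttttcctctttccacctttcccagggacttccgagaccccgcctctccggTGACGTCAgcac
Fos: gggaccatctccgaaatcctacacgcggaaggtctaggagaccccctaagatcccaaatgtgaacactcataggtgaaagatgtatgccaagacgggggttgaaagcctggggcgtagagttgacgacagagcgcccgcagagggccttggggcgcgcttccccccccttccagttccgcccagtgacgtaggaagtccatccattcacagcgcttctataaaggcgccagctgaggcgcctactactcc

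Beside these, conventional CD4 T cells had higher Socs1 (123 and 303 UMIs, 2.03, 1.64 to 2.53), the constitutive chaperone Hspa8 (610 and 1402 UMIs, 1.90, 1.72 to 2.09) and Rgcc, a cell cycle regulator (2.08, 1.69 to 2.59). Heat shock genes had 7 of 11 upward and a median of 0.80, with Bag3 at 3.01 (1.74 to 5.49). Tmem173 had 36 and 85 UMIs, a ratio of 1.95 (1.31 to 2.96). Lower were Zbtb20, a zinc-finger repressor (350 and 225 UMIs, 0.531, 0.447 to 0.629), Adamts6 (0.490), Ubash3b, which dampens T cell receptor signalling (0.540), and Uqcr11 (0.552). Macrophage or monocyte markers summed to 40.7 CPM without and 15.0 CPM with the agonist in these cells, with 0 and 2 of the 7 at 0, and their part was not tested. Il1rl1, the IL-33 receptor gene, had 60 and 23 UMIs (0.316, 0.187 to 0.519), with 27% of the untreated UMIs in 1 cell. Csf2 (46 and 140 UMIs, 2.51) rested on 3 cells for 63% of its untreated and 58% of its agonist UMIs.

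Regulatory T cells were few (52 and 42), and their values are correspondingly loose. Immediate-early genes had 12 of 17 tested members higher past the mark and none lower, where 9.25% of the 1060 genes tested in these cells lay that far up and 8.30% that far down. Ppp1r15a had 48 and 117 UMIs (3.11, 2.20 to 4.44) and Zfp36, which destabilises cytokine messages, 64 and 128 (2.55, 1.87 to 3.50). Among interferon-gamma-induced genes 7 of 14 were higher, with a median of 0.58. Several of them rested on few cells. Of the agonist UMIs, 3 cells held 75.7% for Cxcl10 (7 and 74 UMIs), 51.3% for Iigp1 and 50.8% for Gbp5. Of 19 genes of the regulatory programme 3 were higher and 1 was lower. Ctla4, the checkpoint receptor, was at 1.51 (1.35 to 1.69), with 18.1% of its agonist UMIs in 1 cell against 8.4% untreated, and Batf at 1.75 (1.19 to 2.60). Ikzf2, which stabilises these cells, was at 0.697 (0.606 to 0.801), and Il10 had 66 and 20 UMIs (0.386, 0.222 to 0.645), 28.8% of the untreated ones in 1 cell. Areg had 317 and 590 UMIs (2.37), of which 26% under the agonist came from 1 cell. The 4 NK markers summed to 3.47 CPM untreated and 44.2 CPM under the agonist in regulatory T cells, with 3 and 1 of them at 0. The 7 macrophage or monocyte markers summed to 48.6 and 26.5 CPM, with 0 and 4 of them at 0. The part of these markers was not tested.

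Gamma-delta T cells of the agonist library held more Il17a, the cytokine that drives neutrophil recruitment through epithelial and stromal cells. Il17a (chromosome 1, 20730905 to 20734496) had 230 UMIs in 67 untreated and 747 UMIs in 61 agonist cells (695 and 1930 CPM), a ratio of 2.78 (2.39 to 3.23). Cells with an Il17a UMI were 14 of 67 (20.9%) and 27 of 61 (44.3%) as counted, and 16.4% (8.49 to 27.5) and 37.7% (25.6 to 51.0) after thinning, intervals that overlap. By contrast, Il17a was in 0.236% and 0.184% of CD8 T cells and in 0.141% and 0.224% of macrophages or monocytes, which set the background. Conventional CD4 T cells had it in 2.56% and 6.39% of cells, and no regulatory T cell had it (0 of 52 and 0 of 42).

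The receptors through which these cells are driven stood higher too. Il23r had 54 and 115 UMIs (1.82, 1.31 to 2.56) and Il1r1 82 and 154 (1.61, 1.22 to 2.13). Il17f had 49 UMIs under the agonist and none without it, in 6.6% of agonist cells. Among 7 tested helper cytokine genes 5 were higher past the mark and none lower, where 10.8% of the 1371 genes tested in these cells lay that far up and 4.38% that far down. Areg, another of them, had 12 and 214 UMIs, but 83% and 73% of these sat in 3 cells. Cxcr6 (139 and 356 UMIs, 2.19, 1.79 to 2.68), Capg (2.22), Vim (1.87), the leukotriene B4 receptor gene Ltb4r1 (2.34), Git2 (2.52) and the kinase gene Blk, typical of IL-17-making gamma-delta cells (2.03, 1.45 to 2.89), were the highest. Genes of naive and circulating T cells were lower, with 6 of 14 past the mark downward and 2 upward. S1pr1, the exit receptor, had 51 and 13 UMIs (0.218, 0.109 to 0.406), Ly6c2 had 525 and 236 (0.384, 0.328 to 0.449) and the survival gene Bcl2 had 298 and 188 (0.539, 0.447 to 0.650). Thinned shares for Ly6c2 were 41.8% (29.8 to 54.5) and 19.7% (10.6 to 31.8), and for Bcl2 49.3% (36.8 to 61.8) and 21.3% (11.9 to 33.7). With so few cells single cells weigh heavily, and 59% of untreated and 42% of agonist Il17a UMIs came from 3 cells.

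**Figure D5:**
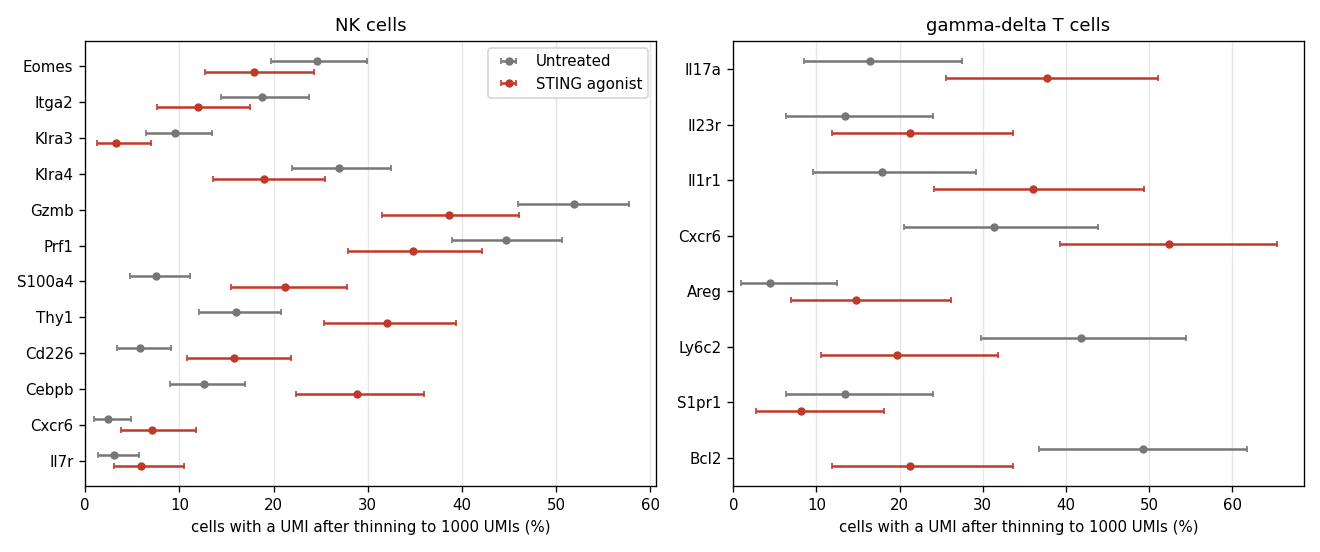
Share of NK cells and of gamma-delta T cells (percent) with at least 1 UMI of each gene after thinning every cell to 1000 UMIs, in the untreated and the agonist library, with exact 95% binomial intervals. S100a4 (7.5% against 21.2%) and Thy1 (16.0% against 32.1%) stand higher in agonist NK cells, and Il17a (16.4% against 37.7%) stands higher in agonist gamma-delta T cells with overlapping intervals.

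Set side by side on the log2 scale, type I interferon-stimulated genes had medians of 0.34 in neutrophils, 0.20 in DCs, 0.11 in CD8 T cells, 0.06 in NK cells and -0.08 in macrophages or monocytes, and of -0.25 over only 9 tested genes in gamma-delta T cells. Interferon-gamma-induced genes had medians of 0.46 in DCs, 0.33 in macrophages or monocytes, 0.24 in CD8 T cells, 0.22 in neutrophils and 0.13 in NK cells. Immediate-early genes stood at 0.65 in conventional CD4 T cells, 0.51 in CD8 T cells, 0.45 in NK cells, 0.22 in DCs, 0.18 in macrophages or monocytes and -0.02 in neutrophils. Chemokine genes stood at 0.89 in neutrophils and at -0.67 in CD8 T cells, where 4 of 7 were lower and 1 was higher past the mark. Heat shock genes, in the order of classes given for immediate-early genes, stood at 0.80, 0.61, 0.57, 0.51, 0.40 and 0.15. Immediate-early and heat shock genes are known to respond to tissue dissociation as well as to stimulation, and with 1 dissociation per group the treatment and the handling of its pool cannot be told apart.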

How the data were processed

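RNA was counted in CD45-positive cells sorted from pooled tumours, with 1 library per group. Per the submitters' processing notes and the study's methods, the authors aligned reads with Cell Ranger 7.1.0 to the mouse genome mm10 and deposited raw UMI counts per gene and barcode for all 4 libraries in 1 matrix. The library of a cell was read from the number ending its barcode, which the labels assign to a treatment, and 0 columns of per-sample values were left unused. Whether reads were counted by strand is not given in the sources used here.

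The study's limits on genes and mitochondrial share were applied. No doublet caller was run, and cells that passed several gates were left out of all classes. UMIs were summed per class and library and scaled to CPM. Intervals on CPM ratios are exact conditional binomial intervals at 95%, and cover counting error only. A gene was compared with at least 50 UMIs in 1 library, without the gate genes of its own class. With 1 library per group no test was made. The 6 highest and 6 lowest genes of a class were named by the interval bound nearest to no difference, among genes in at least 10% of the cells of 1 library with at most 10% of UMIs in a single cell, without gate, mitochondrial, ribosomal, haemoglobin, sex-linked and V(D)J or immunoglobulin genes. For each list, the 3 highest and 3 lowest members and all STING pathway genes could be named, and a few more members were chosen after their values were seen. Members and lists were chosen with earlier results of these data known. Coordinates are GRCm38 (GENCODE), and 32158 of 32285 gene identifiers (99.6%) matched that annotation. Python 3.11.15, numpy 2.4.6, pandas 2.3.3, scipy 1.17.1 and matplotlib 3.10.9 were used, and the script was tested on simulated data. Alternatives were 1 more marker per gate, assignment of cells that passed several gates, no quality limits, thinning before gating, other denominators, another scaling, mean CPM per cell, 10 CPM added, a minimum of 200 UMIs or of 1 UMI in each library, and removal of the top cell. Removal of cells with class II or granule UMIs was added after seeing the data.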

Additional observations from a re-analysis of the deposited data

How the results depend on the processing

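No paired analysis was possible because each group had 1 library. Of 1458 recomputed ratios of genes named by the naming rule none changed direction and 86 moved beyond the counting interval. The rule had chosen these genes for intervals away from no difference in the same libraries. The lack of reversals was therefore largely set in advance and says little about robustness. Of 54 recomputed ratios of shares 50 stayed within their interval. With the lineage as denominator, the ratio was 0.929 for macrophages or monocytes and 1.05 for T cells, and it turned below 1 for CD8 T cells at 0.899 and for NK cells at 0.871. Thinning before gating gave 0.994 for NK cells and left 4 untreated and 8 agonist gamma-delta T cells, a ratio of 3.61. The median log2 ratio of interferon-stimulated genes in DCs was 0.072 with 1 more marker per gate, 0.14 as a mean over cells and 0.15 without quality limits, and in macrophages or monocytes it was -0.00124 as a mean over cells. The median of class II genes in NK cells was -0.40 without cells of 3 or more class II UMIs.

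How many genes passed 1.5-fold depended on the minimum count and on a pseudocount. The main numbers were 218 in neutrophils, 452 in macrophages or monocytes, 578 in DCs, 406 in NK cells, 469 in CD8 T cells and 390 in conventional CD4 T cells. In this order a minimum of 200 UMIs gave 41, 114, 85, 68, 116 and 54 genes, and 1 UMI in each library gave 4274, 3530, 3125, 3709, 2962 and 3516. With 10 CPM added, 23 genes passed in macrophages or monocytes, 195 in DCs, 223 in NK cells, 151 in CD8 T cells and 259 in conventional CD4 T cells. Assigning cells of several gates gave 432 in neutrophils, 722 in CD8 T cells and 623 in conventional CD4 T cells, and a mean over cells gave 617 in NK cells. Depth limits regulatory T cells (52 and 42 cells) and gamma-delta T cells (67 and 61 cells) most.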
